A study of Mus musculus with 2 samples.

Results

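The CA1 pyramidal layer of the mouse dorsal hippocampus was described in 2 coronal brain sections profiled with Visium, an array that captures messenger RNA from a tissue section on a grid of barcoded spots. Its spots were selected by a score over 6 CA1 genes, Wfs1, Fibcd1, Pou3f1, Lefty1, Spink8 and Gpr161. In each section the 120 highest scoring spots with at least 2000 unique molecular identifiers (UMIs, counted transcript molecules) were taken, which gave 240 of 7890 spots in all. A spot is a small region that holds parts of several cells, so the spots are called CA1 layer spots and not cells.

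Both sections came from adult male ArcCreERT2::eYFPflx mice on a C57BL/6 background, 1 mouse per group. In that line the Arc gene drives an inducible Cre recombinase that can switch on a yellow fluorescent reporter, and both groups carried it. The Trained mouse learned active place avoidance, in which a mouse on a rotating arena avoids an unmarked zone that delivers a foot shock, and the Untrained mouse spent the same sessions with the shock off. Brains were frozen about an hour after a retention test on the day after training. The group labels were used as deposited. The reporter was not measured here and, carried by both mice, could not tell the groups apart. Remaining spots with an Egr1 UMI made up 37.5% in the section labelled Trained and 55.7% in the one labelled Untrained, which was also the deeper section. Scaled to the totals, Egr1, a gene induced by neuronal activity, ran the other way in these spots, at 141 and 123 CPM (log2 0.20 for Trained over Untrained), and Arc stood at 0.19. The study reports Egr1, Arc and Jun in larger shares of hippocampal spots in the trained mouse, a different set from the remaining spots. None of this is a test of the labels, so each direction of Trained over Untrained holds only as labelled. Each group held 1 section of 1 mouse, so no test between groups was possible, no p-value is given, and mouse, section, slide area and training cannot be told apart. The intervals given are 95% intervals for counting error only.

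CA1 is the last station of the hippocampal circuit that runs from the dentate gyrus (DG) through CA3, and its pyramidal neurons send the hippocampal output to the subiculum and cortex. Their cell bodies form a thin, dense arc. White matter, the alveus and corpus callosum, lies between the arc and the neocortex, and the apical dendrites reach down through stratum radiatum toward the DG. CA1 pyramidal cells are known for glutamate receptors and calcium-dependent kinases that support synaptic plasticity, and for place fields.

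The Trained section held 4152 spots and 29515831 UMIs, and the Untrained section 3738 spots and 59029131 UMIs. At least 2000 UMIs were found in 3651 Trained and 3522 Untrained spots, which left 3531 and 3402 spots for comparison with the members, called the remaining spots. Members held 2061 to 29893 UMIs in the Trained section (median 7930) and 4669 to 70859 in the Untrained section (median 17213), so the Untrained values carry less counting error. The remaining spots had medians of 6589 and 14278.5 UMIs. Both sections used the same barcode list (3448 shared barcodes, all at the same grid position), and 22 barcodes were members in both, which marks a position on the array and not a shared sample.

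The members formed an arc on each side of the brain. In the Trained section 67 and 43 members lay in the largest connected patches, one on each side, and 10 lay outside them. In the Untrained section the patches held 69 and 50 members, and 1 lay outside. The split into sides was 50 members on the left and 70 on the right in both sections. The score was 0.587 for the lowest Trained member and 0.574 for the highest spot left out, and 0.682 and 0.676 in the Untrained section, so the edge of the selection was not a gap.

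**Figure D1:**
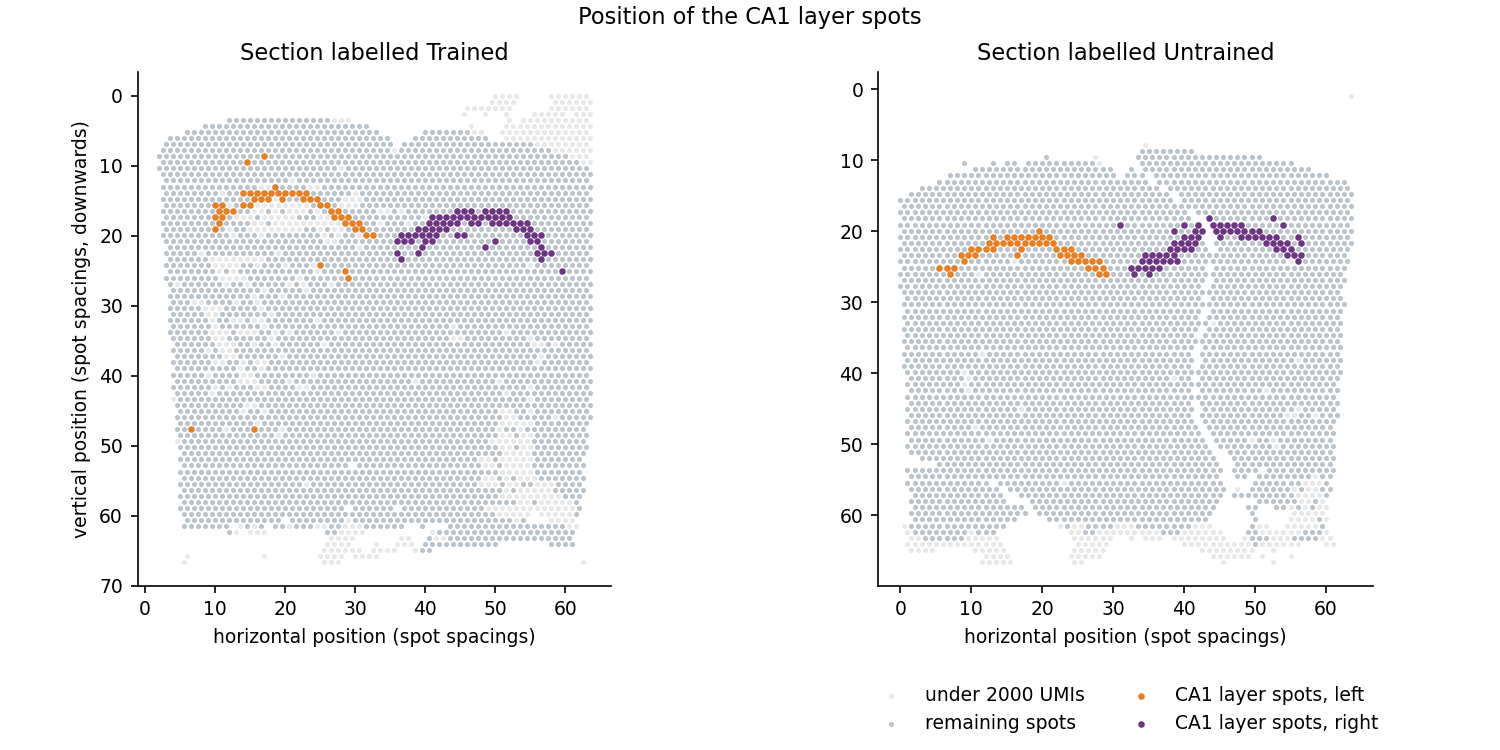
Each point is a spot at its grid column and row in the Trained and Untrained sections, shaded by whether it is a CA1 layer spot, one of the remaining spots with at least 2000 UMIs, or below that limit. The 120 members of each section form a curved band on each side of the brain.

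The 6 score genes chose the members, so their levels are a description. Levels are given as counts per 1000000 UMIs (CPM), pooled over the spots of a class. Wfs1, which encodes the endoplasmic reticulum protein wolframin, stood at 350 CPM in Trained members against 45.4 in the remaining spots, and at 429 against 42.8 in the Untrained section. Spink8, a serine protease inhibitor gene, stood at 380.2 against 15.8 and at 385 against 25.4 CPM. Lefty1, which encodes a secreted inhibitor of Nodal signalling, had 54.2% and 49.3% of the UMIs found in either section's counted spots inside the members.

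The CA1 label was set beside 12 further CA1 genes that the score did not use, 11 of which had enough counts. Their median log2 ratio of members over remaining spots was 2.08 in the Trained and 2.02 in the Untrained section, against 0.02 and 0.04 over all genes tested. All 11 were above 0 in both sections and 8 were at least 2-fold higher in both, against 3.50% of all genes tested. Among the others, Tyro3 (0.14 and 0.92) and Nr3c1 (0.26 and 0.32) were higher by less than 2-fold. Summed per spot, the 12 genes ranged from 688 to 8303 CPM in Trained members (median 3717) and from 783 to 7034 CPM in Untrained members (median 3706). The lowest members thus held less of these genes than the remaining spots, whose pooled sums were 924 and 914.5 CPM. The list was chosen with earlier results of these data known, so it is not an independent check. It was set against all remaining spots and not against the fields most like CA1.

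Against the remaining spots of the same section, 326 of 9323 genes (3.50%) were at least 2-fold higher in CA1 layer spots in both sections, and 555 (5.95%) were at least 2-fold lower in both. Under the alternative settings given at the end, the counts ran from 190 to 409 and from 221 to 916. These counts leave out the 6 score genes and genes with under 300 UMIs in a section, and they are a description, since spots are not replicates and members were selected on expression. A higher level in a spot can come from more cells of a type or from more RNA per cell, which cannot be told apart here. At least 4-fold higher levels in both sections were found for 33 genes. The log2 ratios of the 2 sections had a Pearson r of 0.86 across the genes tested, which share each section's library and depth and are not independent replicates.

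The calcium sensor gene Hpca and the kinase genes Itpka and Plk2 stood among the 15 genes furthest above the remaining spots. Hpca, which encodes the neuronal calcium sensor hippocalcin (chr4:129111570-129122036 in GRCm38, overlapping Tmem54 on the opposite strand), stood at 2885 CPM in Trained members and 400 in the remaining spots, a log2 ratio of 2.85 (2.79 to 2.91). In the Untrained section it stood at 2875 against 469 CPM, a log2 ratio of 2.62 (2.58 to 2.65). Per spot, Hpca ran from 0 to 5018 CPM around a median of 1970 in Trained members, and from 196 to 5645 around 2079.5 in Untrained members. It had a UMI in 118 and 120 of 120 members, but also in 57.1% and 88.3% of the remaining spots, so the classes differed in level and overlapped in detection. Itpka, an inositol trisphosphate kinase of dendritic spines (chr2:119742337-119751263), stood at 667 against 117.5 CPM in the Trained and 551 against 108 CPM in the Untrained section. Plk2, an activity-induced kinase of dendritic spines (chr13:110395046-110400844), stood at 521 against 96.7 and at 348 against 68.8 CPM.

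The transcriptional regulator genes Neurod6 and Lmo1 were also among these 15 genes. Neurod6, a basic helix-loop-helix factor of forebrain pyramidal neurons (chr6:55677822-55681263), stood at 335 CPM against 50 in the Trained section, a log2 ratio of 2.75 (2.58 to 2.91). In the Untrained section its level was 328.5 against 52.6 CPM, a log2 ratio of 2.64 (2.53 to 2.75). A Neurod6 UMI was found in 90 and 112 of 120 members and in 18% and 33.6% of the remaining spots. Lmo1, a LIM-only cofactor (chr7:109138572-109175207, overlapping Gm44781 on the opposite strand), stood at 268 against 32.4 CPM and at 261 against 48.7 CPM, log2 ratios of 3.05 and 2.42. Its 2 ratios were further apart than those of Neurod6, and the remaining spots account for the gap, since the member levels were close.

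The ratio nearest to 0 was highest for Gm2115, a long non-coding RNA gene (chr7:84528954-84583531). It stood at 132 against 13.6 CPM in the Trained section (log2 3.28, 3.0 to 3.55) and at 144 against 12.9 CPM in the Untrained section (log2 3.48, 3.30 to 3.67). Klk8, the secreted serine protease neuropsin (chr7:43797577-43803826), stood at 74.5 against 9.0 CPM (log2 3.05, 2.68 to 3.41) and at 105 against 13.7 CPM (log2 2.94, 2.74 to 3.14). Klk8 overlaps 2310002F09Rik on the opposite strand, and whether the counting used strand is not given in the sources used here. The median Trained member held no Klk8 UMI, and the gene was detected in 51 of 120 Trained and 84 of 120 Untrained members, so single spots say little about it.

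The other genes of the 15 had mixed functions. Iqgap2, a scaffold that binds calmodulin and small GTPases (chr13:95627177-95891922), had log2 ratios of 2.98 and 2.73. Rasd1, a small GTPase induced by glucocorticoids (chr11:59963181-59964944), had 2.58 and 2.54, and Rgs14, a regulator of G protein signalling also known from CA2 (chr13:55369732-55384687), had 2.34 in both sections. The remaining genes were Pkp2, a desmosomal armadillo protein (2.68 and 2.46), Arhgap12, a GTPase activating protein (2.67 and 2.39), Abracl (2.81 and 2.36), Man1a, a Golgi mannosidase (2.38 and 2.67), and the small GTPase gene Arl15 (2.35 and 2.65). All 15 of these leading genes were at least 4-fold higher on the left and on the right side of both sections, taken by side against the same remaining spots. The genes were chosen by the pooled ratio of these same members, so the values by side are a description and not a check.

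**Figure D2:**
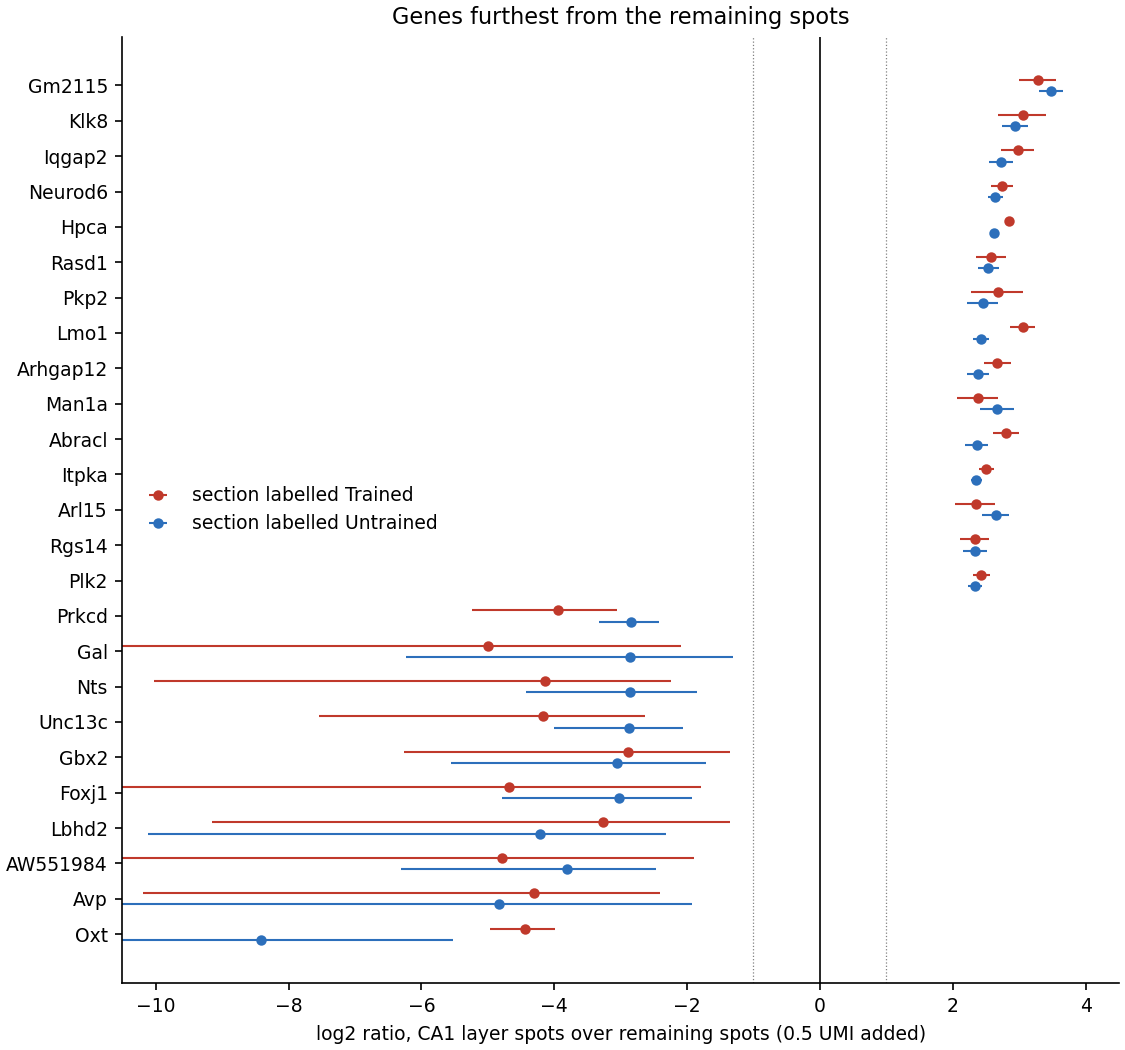
Log2 ratios of CA1 layer spots over the remaining spots for the 15 highest and 10 lowest genes, with 0.5 UMI added to each sum, one symbol per section and bars for the 95% counting interval. Bars that reach the left edge have no lower bound, because no UMI was counted in the members. The high genes carry narrow bars in both sections and the low genes wide ones.

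The genes furthest below the remaining spots included genes known from the hypothalamus, the thalamus and the ependyma, regions elsewhere in the same coronal sections. Prkcd, a protein kinase C gene known from the thalamus (chr14:30595354-30626210), stood at 6.85 against 112 CPM in the Trained section (log2 −3.94, −5.24 to −3.05) and at 16.5 against 119.9 CPM in the Untrained section (log2 −2.84, −3.33 to −2.43). Oxt, which encodes the hypothalamic hormone oxytocin (chr2:130576173-130577054), had 37 UMIs in Trained members, 31.7 against 695 CPM (log2 −4.44, −4.96 to −3.99). No Oxt UMI was found in Untrained members, which makes it at least 56.6-fold lower than the 65.3 CPM of the remaining spots, with 3 counts over the members taken as the floor. The remaining spots of the 2 sections thus also differed from each other in Oxt.

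Counts in the members were low for the other genes at this end, so their ratios are coarse. Avp, the vasopressin gene, had 1 UMI in Trained members and 0 in Untrained members, the latter at least 4.72-fold lower than the remaining spots. Gal, the galanin gene, had 0 and 2 UMIs, at least 5.29-fold lower in the Trained section and at a log2 ratio of −2.85 (−6.22 to −1.31) in the Untrained section. With each spot thinned to 2000 UMIs the Untrained value for Gal was 0.38, so its direction is not settled. Foxj1, a factor of ciliated cells, had 0 and 5 UMIs and was at least 4.27-fold lower in the Trained section. AW551984 had 0 and 3 UMIs, Lbhd2 1 and 1, the thalamic homeobox gene Gbx2 2 and 3, and Nts, the neurotensin gene, 1 and 6. Unc13c, a synaptic vesicle priming gene, had 2 and 10 UMIs, with log2 ratios of −4.17 (−7.53 to −2.63) and −2.88 (−4.01 to −2.06).

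Calcium signalling genes were a list with many members on the high side. Of 24 genes tested, 12 were at least 2-fold higher in both sections and 2 at least 2-fold lower, against 3.50% and 5.95% of all genes tested, with a list median of 1.03 (Trained) and 0.99 (Untrained). Ppp3ca, the calcineurin A alpha gene, stood at 2324 against 653 CPM in the Trained and at 1985 against 553 CPM in the Untrained section. Calm2, a calmodulin gene, stood at 4382 against 1917 and at 3167.5 against 1411 CPM. Prkca, a protein kinase C gene, had log2 ratios of 1.69 and 1.58, and Ppp3r1, the regulatory subunit of calcineurin, 1.49 and 1.58. The list was not uniform. Ncald, a calcium sensor of the same family as Hpca, was lower at log2 −1.42 and −1.5, and Camk2d at −2.07 and −2.25, while Camk2a, the alpha subunit of the same kinase, was higher at 0.94 and 0.81.

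Glutamate receptor genes are given by class, and differences between the classes were not tested. Among AMPA receptor subunits and their auxiliary proteins, 5 of 10 genes were at least 2-fold higher in both sections, against 3.50% of all genes tested. Gria1, the GluA1 subunit (chr11:57011387-57330244), stood at 746 against 191 CPM in the Trained section and at 578 against 183 CPM in the Untrained section. Gria2 (1.46 and 1.40), Gria3 (1.01 and 1.08) and the auxiliary genes Cnih2 (1.62 and 1.69) and Shisa6 (2.34 and 2.15, on the log2 scale) were the others. Shisa9, another auxiliary gene and 1 of 4 genes of this list below 0 in both sections, was lower at −1.66 and −1.23. The AMPA list medians were 0.63 (Trained) and 0.97 (Untrained). For NMDA receptors 2 of 6 genes were at least 2-fold higher, against the same 3.50%. They were Grin2a, at 425 against 88.8 and 415 against 94.8 CPM, and Grin2b, at log2 1.91 and 1.57. The obligatory subunit Grin1 was higher by less than 2-fold (0.88 and 0.87). The other 3 NMDA receptor genes were below 0 in both sections, and the list medians were 0.18 (Trained) and 0.25 (Untrained).

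Other receptor classes had at most 2 genes each at least 2-fold higher in both sections. Over all genes tested, 3.50% were at least 2-fold higher in both sections and 5.95% at least 2-fold lower. Among 5 metabotropic glutamate receptor genes, Grm5 was higher (1.53 and 1.55) and Grm2 (−1.65 and −1.60) and Grm4 (−3.29, −9.18 to −1.39 on 1 UMI, and −1.18) were lower. Of 5 kainate receptor genes Grik1 was at least 2-fold lower (−1.48 and −1.87). Of 11 GABA-A receptor genes, 7 were above 0 in both sections and 2 were at least 2-fold higher in both. Among them, Gabra5, the alpha 5 subunit known for tonic inhibition in the hippocampus, stood at 277 against 48.1 and at 203.6 against 43.8 CPM. Gabrg1, another subunit of the list, was lower (−1.93 and −1.08).

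Of 21 voltage-gated channel genes and their partners, 4 were at least 2-fold higher in both sections, against 3.50% of all genes tested. Among them, Pex5l, which encodes the auxiliary channel protein TRIP8b, had log2 ratios of 1.80 and 1.48. Kcnd2, an A-type potassium channel gene, had 1.47 in both, and Kcnq3, of the M-current, 1.35 in both. Of 18 synaptic vesicle genes 0 were at least 2-fold higher in both sections, against 3.50% of all genes tested, and the list median of −0.07 and −0.03 lay near that of all genes. Slc17a7, the vesicular glutamate transporter, was higher by less than 2-fold (0.80 and 0.79), and Vamp1 was lower (−1.60 and −1.25).

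Among 17 forebrain transcription factor genes, 6 were at least 2-fold higher in both sections and 2 at least 2-fold lower, against 3.50% and 5.95% of all genes tested. Besides Neurod6 these included Bcl11b, also known as Ctip2 (168 against 37.3 and 142.5 against 32.7 CPM), Neurod2 (1.88 and 1.5), Bcl11a (1.34 and 1.57) and Zbtb20 (1.52 and 1.01). Prox1, the factor of DG granule cells, was lower at −1.97 and −1.51, as was Mef2c at −1.79 and −1.16. Of 7 hormone receptor genes, Nr3c2, the mineralocorticoid receptor (chr8:76899442-77245012), was 2-fold higher, at 139.6 against 26.1 and 107 against 25.8 CPM. Nr3c1, the glucocorticoid receptor, differed less, as given above.

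**Figure D3:**
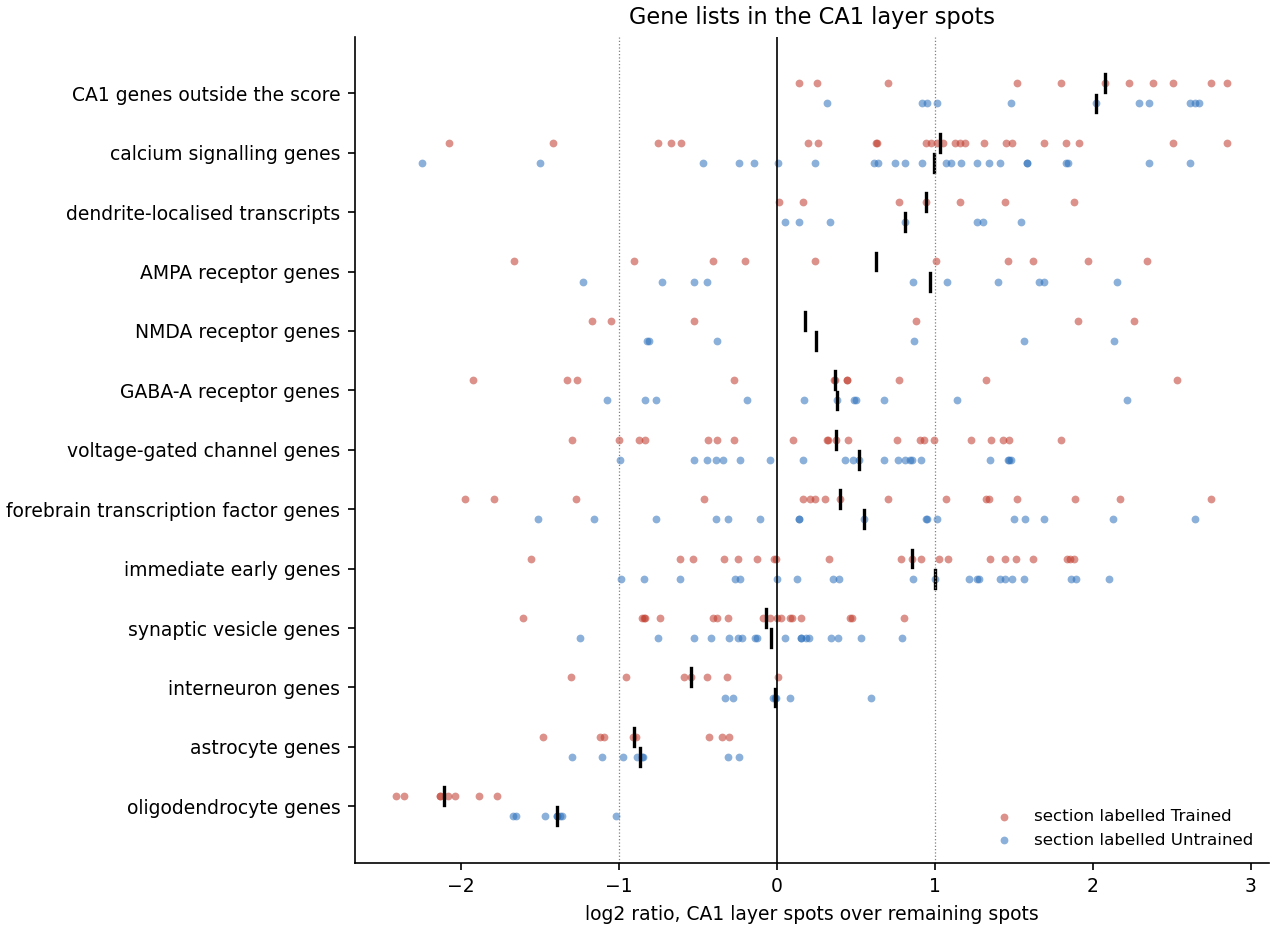
Log2 ratios of CA1 layer spots over the remaining spots for the genes of each list, Trained and Untrained side by side, with a point per gene and a line at the list's median. The CA1 genes outside the score have medians of 2.08 and 2.02, and the oligodendrocyte genes −2.11 and −1.39.

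Immediate early genes, which neurons transcribe within minutes of activity, were split in CA1. Of 21 tested, 8 were at least 2-fold higher than the remaining spots in both sections, against 3.50% of all genes tested. None was 2-fold lower in both, which says little in 21 genes at the share of 5.95% over all genes tested. Egr1, a zinc finger factor, stood at 384 against 141 CPM in the Trained section (log2 1.44, 1.30 to 1.58) and at 364 against 123 CPM in the Untrained section (log2 1.57, 1.47 to 1.66). Arc, whose product trims AMPA receptors from synapses (chr15:74669083-74672570), stood at 152 against 71.9 CPM (log2 1.08, 0.85 to 1.30) and at 167.5 against 63.1 CPM (log2 1.41, 1.26 to 1.55). Nr4a1, an orphan nuclear receptor gene (chr15:101254269-101274795), stood at 153 against 43.0 and at 177.5 against 47.7 CPM. The others were Nr4a2 (1.85 and 1.49), Nr4a3 (1.88 and 1.86), Egr3 (1.02 and 1.28), Egr4 (1.62 and 2.10) and Junb (1.35 and 1.44).

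Fos and Jun did not share that pattern. Fos stood at 26.5 against 32.0 CPM in the Trained section and at 34.6 against 26.5 CPM in the Untrained section, with 31 and 90 UMIs in the members. The Trained log2 ratio of −0.25 for Fos turned under the alternatives, which ran from −0.96 with left members only to 0.65 with each spot thinned to 2000 UMIs. Jun was lower in CA1 layer spots, at 20.55 against 61.8 CPM in the Trained section (log2 −1.56, −2.24 to −1.01) and at 25.4 against 50.5 CPM in the Untrained section (log2 −0.98, −1.37 to −0.64). Arc was detected in 78 and 111 of 120 members, and Jun in 22 and 46.

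Markers of other cell types were mostly below the remaining spots. All 8 oligodendrocyte genes were at least 2-fold lower in both sections, against 5.95% of all genes tested. Their summed level was 1590 against 7252 CPM in the Trained and 2408 against 6636 CPM in the Untrained section. Per member that sum ran from 0 to 29443 CPM (median 1305) and from 505 to 27317 CPM (median 1790), so single members carried as much myelin RNA as the white matter above the layer. All 8 astrocyte genes were below 0 in both sections (medians −0.90 and −0.87), and Aqp4 alone was past 2-fold in both. Interneuron genes had medians of −0.55 and −0.01, with 0 of 7 past 2-fold in both. None of 8 microglia or 5 endothelial genes was past 2-fold in both sections, and no marker in these 5 lists was at 0 in the members. The absence of genes past 2-fold says little in lists this short, since 3.50% of all genes tested were higher and 5.95% lower.

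Other hippocampal fields were tested with their own lists. Pcp4, a CA2 gene, was lower in CA1 layer spots (log2 −2.36 and −1.93), while Rgs14 of the same list was higher. Of the CA3 genes tested 3 of 5, and of the upper layer neocortex genes 3 of 5, were at least 2-fold lower in both sections, against 5.95% of all genes tested. Both DG genes tested were below 0 in both sections and 1 of them was at least 2-fold lower (medians −1.80 and −1.19). Lct, also a DG gene, was higher, at 34.25 against 7.03 and 53.0 against 9.67 CPM, but was below the 300 UMI minimum. Ttr, the transthyretin gene of the choroid plexus, was found in 113 and 120 of 120 members at 717 and 4383 CPM, against 5600 and 18722.5 CPM in the remaining spots. Its part in other results was not tested.

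The layer was narrow on the grid. Spots were grouped by their distance in grid steps from the nearest member with at least 2 member neighbours, above the layer (toward the neocortex) and below it (toward the DG), with 56 to 73 spots at each single step on each side. The CA1 genes outside the score summed to 1354 CPM at 1 step above, 4946 in the layer and 2708 at 1 step below in the Trained section. In the Untrained section the same sums were 1671, 4589.7 and 2115 CPM. The fall was thus steeper on the white matter side in both sections. Hpca behaved likewise, with 438, 2885 and 1735 CPM in the Trained and 827, 2875 and 1364 CPM in the Untrained section.

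Myelin genes marked the upper edge. Oligodendrocyte genes summed to 22476 CPM at 1 step above the layer and 32613 at 2 steps above in the Trained section, against 1590 in the layer and 2193 at 1 step below. The Untrained section had 16927, 20126, 2408 and 2900 CPM at the same places. Prox1, the DG granule cell factor, was highest well below the layer, with 8.56 CPM in the Trained layer, 129 at 4 steps below and 154 at 5 to 6. In the Untrained section Prox1 stood at 11.9, 107 and 101 CPM at these places. Nearer to the layer it did not tell the sides apart in the Trained section, with 38.0 CPM at 2 steps above (19.65 to 66.4) and 41.4 at 2 steps below (22.0 to 70.7). The Untrained values there were 19.7 CPM (10.2 to 34.5) and 33.1 CPM (22.65 to 46.7), with overlapping intervals.

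Camk2a and Ddn, whose transcripts are known to travel into dendrites, had their highest levels below the cell bodies. Camk2a stood at 473 CPM in the Trained layer and at 689.9, 770.1 and 757 CPM at 1, 2 and 3 steps below. In the Untrained section it stood at 524 CPM in the layer and at 767, 688 and 757 CPM at those steps. Ddn, which encodes the spine protein dendrin and overlaps B130046B21Rik on the opposite strand, stood at 619 CPM in the layer and 729.7 at 1 step below in the Trained section, and at 636 and 737 CPM in the Untrained section. Of the 7 dendrite-localised transcripts of the list, which include Camk2a and Ddn, 6 were higher at 1 step below than in the layer in the Trained section and 5 in the Untrained section, where Psd stood at 615 CPM in the layer and 567 at 1 step below. The exception in both was Nrgn, at 3351 against 1603 CPM (Trained) and 3192 against 1550 CPM (Untrained). Gria1 also had the opposite order to Camk2a, with 746 CPM in the layer and 315 at 1 step below (Trained), and 578 and 316 CPM (Untrained). Mitochondrially encoded genes were highest just below the layer as well, at 205748 CPM against 91390 in the layer in the Trained section and 257546 against 134214 in the Untrained section. CPM values share one total, so a high mitochondrial share lowers the other genes of the same ring.

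**Figure D4:**
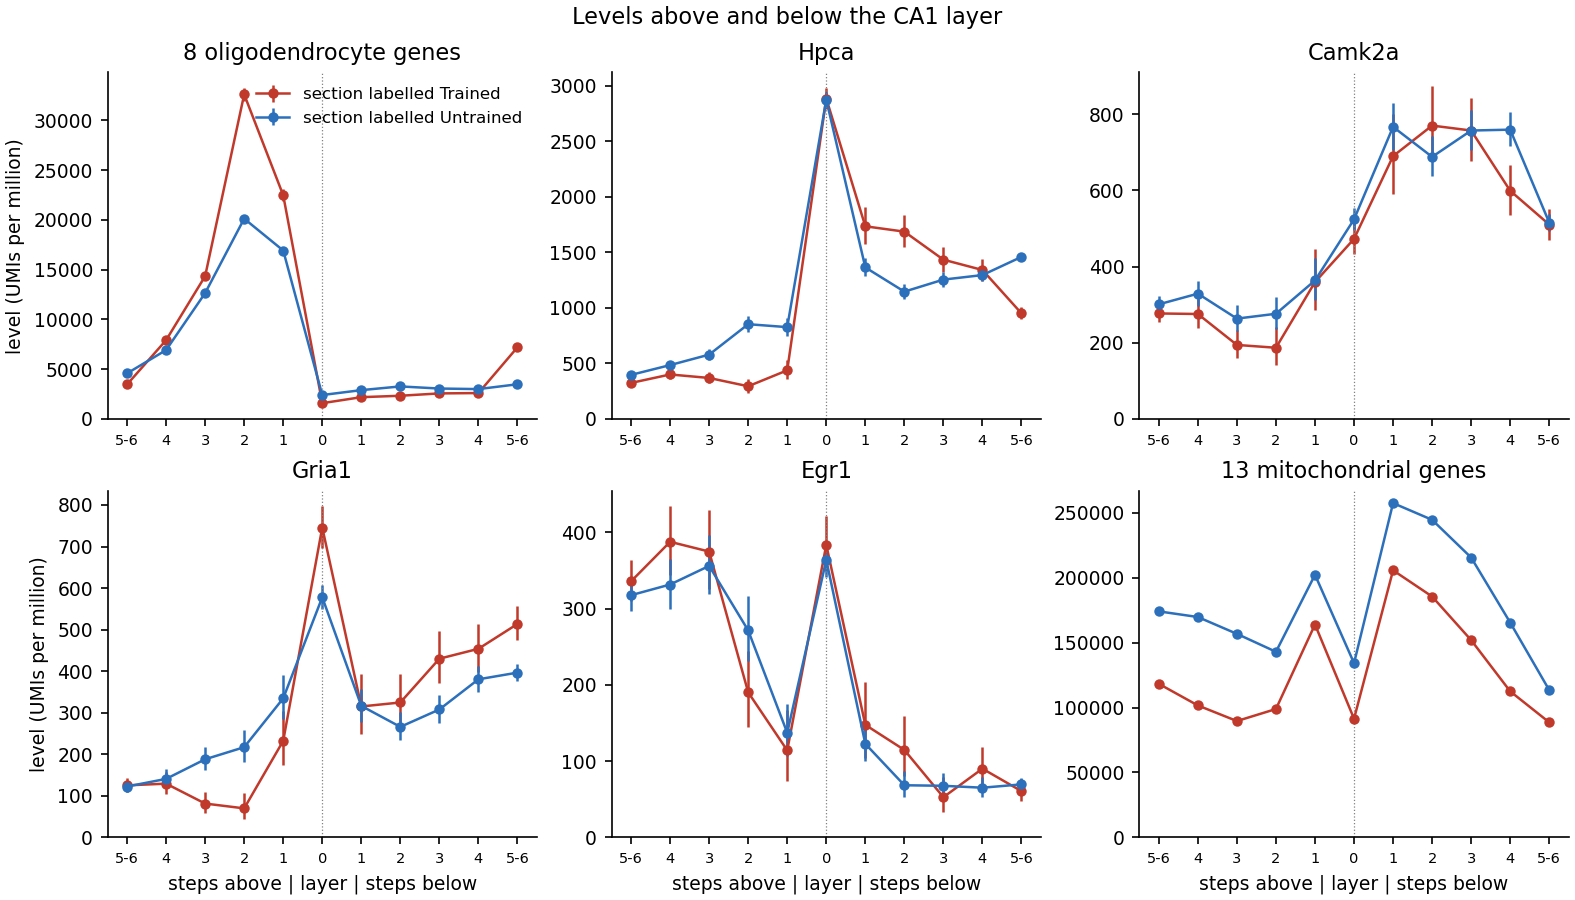
Pooled level in CPM of selected genes and gene lists against distance in grid steps from the CA1 layer, with steps above it (toward the neocortex) on one side of 0 and steps below it (toward the DG) on the other, one line per section and bars for the 95% counting interval. Hpca peaks in the layer, Camk2a below it and the oligodendrocyte genes above it, in both sections.

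Egr1 and Arc were high in the layer and again toward the neocortex, with a low ring in the white matter. Egr1 in the Trained section stood at 387.5 CPM at 4 steps above, 114 at 1 step above, 384 in the layer, 147.5 at 1 step below and 52.6 at 3 steps below. The Untrained section had 331.5, 137, 364, 123 and 67.6 CPM at the same places. Arc stood at 238 CPM at 4 steps above, 92.0 at 1 step above, 152 in the layer and 99.7 at 1 step below in the Trained section, and at 198, 97.7, 167.5 and 108 CPM in the Untrained section, so it was higher toward the neocortex than in the layer. Jun went the other way at the upper edge, with 92.0 CPM at 1 step above and 20.55 in the layer (Trained), and 43.6 and 25.4 CPM (Untrained).

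Another 3 sets of 120 spots per section were chosen in the same way on marker lists of DG granule cells, CA3 pyramidal cells and the upper neocortex. Each set's own list chose its spots, so those genes are a description. Against the DG set, 284 of 9321 genes (3.05%) were at least 2-fold higher in CA1 layer spots in both sections and 290 (3.11%) at least 2-fold lower. Ptpru, a receptor tyrosine phosphatase gene (chr4:131768457-131838288), stood at 53.95 CPM in CA1 and 2.45 in the DG set (Trained), and at 67.6 and 4.86 CPM (Untrained). The other genes highest over the DG set were 9130024F11Rik, Cpne8, Gm2115 and Man1a, with log2 ratios of 3.42 to 4.71. At the low end Stxbp6, a SNARE-binding gene, stood at 11.99 against 266 CPM and at 13.45 against 227 CPM, and Plekha2, Cdh9 and Npnt had log2 ratios of −5.16 to −3.54. Such ratios rest on few molecules, since Plekha2 stood at 1.71 and 4.99 CPM in CA1 layer spots against 76.0 and 86.8 in the DG set.

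Egr1, Arc, Nr4a1, Fos and Jun were also set against the DG set. Egr1 stood at 59.7 and 50.4 CPM in the DG set, a log2 ratio of CA1 over DG of 2.68 and 2.85. Arc had 2.61 and 2.78, and Nr4a1 3.0 and 3.37. Jun had the opposite sign, with 213 and 154.6 CPM in the DG set and log2 ratios of −3.34 and −2.60. Fos was higher in CA1 than in the DG set (1.40 and 1.54). Closer to 0 were the receptor genes Gria1, at 0.18 and 0.35, and Nr3c2, at 0.44 and 0.36, and the transcription factor gene Bcl11b, at 0.17 and 0.14.

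Against the upper neocortex set, 199 of 9318 genes (2.14%) were at least 2-fold higher in both sections and 322 (3.46%) at least 2-fold lower. The genes that CA1 shared with the DG set differed here, with Gria1 at 2.54 and 2.35, Bcl11b at 2.94 and 3.05 and Nr3c2 at 2.46 and 2.72. Gabra5 (3.06 and 2.5), Shisa6 (3.65 and 3.59) and Pkp2 (3.61 and 3.98) were also higher in CA1. Closer to 0 were Egr1, at 0.45 and −0.06, Arc, at 0.33 and −0.23, and Slc17a7, at 0.05 and 0.16. Fos was lower in CA1 than in the upper neocortex set (−1.32 and −1.09).

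The set chosen on CA3 genes went against its name in part, since genes known from the thalamus were high in it. Its spots lay a median of 8 and 11.5 steps from the nearest member, farther than the DG set at 4 and 5. Against this set, 194 of 9318 genes (2.08%) were at least 2-fold higher in CA1 layer spots in both sections and 278 (2.98%) at least 2-fold lower. Among the highest were Mpped1, Htr1b, Ccn3 and 9130024F11Rik, with log2 ratios of 3.44 to 4.56. The lowest were Prkcd, Rab37, Tnnt1, Gbx2 and Ramp3, with Prkcd at 6.85 against 344 and 16.5 against 325 CPM. Of the 326 genes 2-fold higher than the remaining spots, 108 were also 2-fold higher than the DG set in both sections, 112 than the set chosen on CA3 genes, 150 than the upper neocortex set, and 33 than all of them.

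Members differed among themselves most in genes of other cells. Spread was measured as the squared coefficient of variation beyond counting noise after each spot was thinned to 2000 UMIs, and its median over 542 genes was 0.0785 (Trained) and 0.0384 (Untrained). It was 9.95 and 6.75 for Sst, the somatostatin gene of a class of interneurons. The median Trained member held no Sst UMI and the highest held 7958 CPM, and in the Untrained section the highest held 6890.0 CPM. Hbb-bs, a haemoglobin gene of blood, had 13.6 and 2.21, and Ttr had 3.64 and 2.95.

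Pcp4, a calmodulin-binding gene marked in CA2, was another gene of high spread, with 2.64 and 2.08, and differed by side. It stood at 1199.7 CPM on the left and 379.5 on the right in the Trained section, and at 455 and 620.3 CPM in the Untrained section. Left members were shallower in both sections, with median UMIs of 5604 against 9360.5 (Trained) and 12608 against 21533 (Untrained).

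Between the Trained and Untrained CA1 layer spots, 571 of 5695 genes (10%) were at least 1.5-fold higher in the Trained section and 326 (5.72%) at least 1.5-fold lower. With totals taken without mitochondrially encoded genes the split was 425 higher to 434 lower, so the balance of directions rests on the scaling. The log2 ratio had a median of 0.07 and an SD across genes of 0.44, of which counting error alone gives 0.21. The remaining spots of the same sections had a median of 0.09 and an SD of 0.37 over the same genes, and the ratios in members and in remaining spots had a Pearson r of 0.81 across genes, which share their libraries. Of the 897 genes past 1.5-fold in members, 871 had the same direction in the remaining spots and 389 were past 1.5-fold there too. The direction of these differences was thus mostly shared with the remaining spots, which include spots bordering the selected layer.

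**Figure D5:**
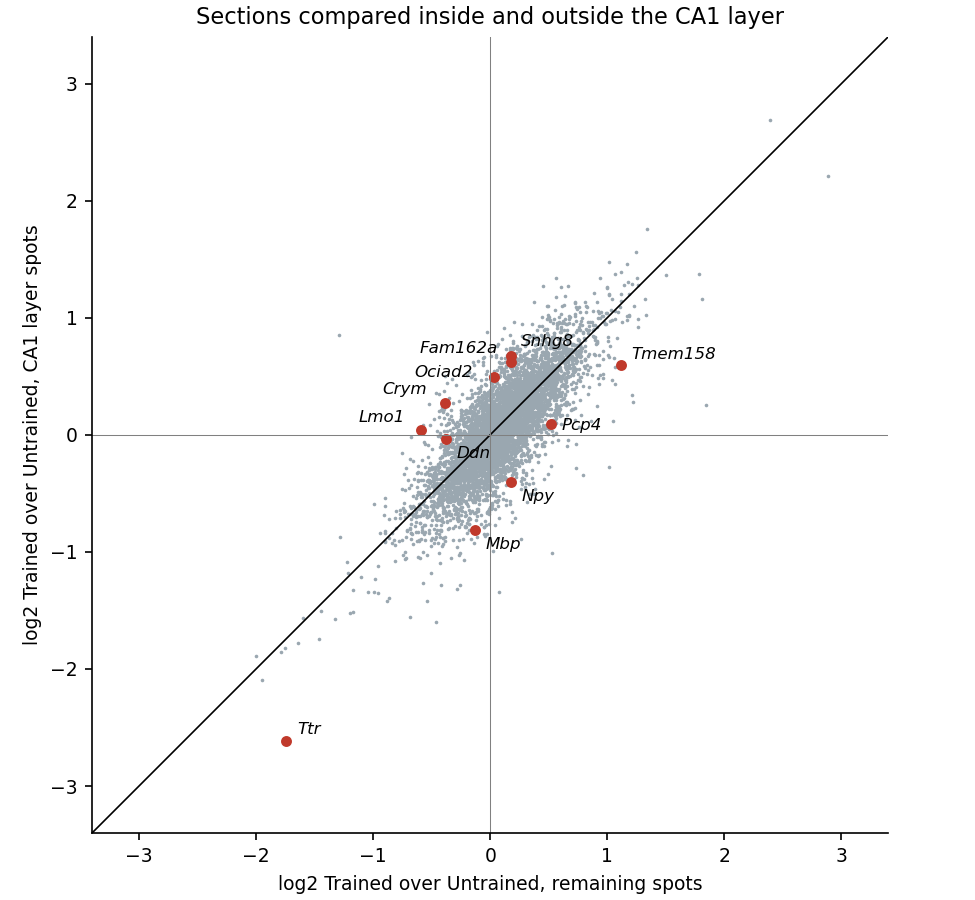
Log2 ratio of the Trained over the Untrained section for each gene with enough counts, in the remaining spots on the horizontal axis and in the CA1 layer spots on the vertical axis, with the named genes labelled. Of 5701 genes, score genes included, 5 lie outside the axes. The points follow the diagonal, and Ttr and Mbp lie below it.

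The difference between the ratio in members and that in the remaining spots had a median of −0.02 and ran from −0.44 to 0.37 between its 5th and 95th percentiles. Crym, a thyroid hormone binding protein gene (chr7:120186380-120202111), stood at 323 CPM in Trained and 267 in Untrained members, log2 0.27, against −0.39 in the remaining spots, a difference of 0.66 (0.46 to 0.86). For Lmo1 the difference was 0.63 (0.41 to 0.85), with a log2 ratio of 0.04 in members and −0.59 in the remaining spots, so the gap lay in the remaining spots. Snhg8, a small nucleolar RNA host gene (chr3:123507552-123508404), stood at 215 and 135 CPM, log2 0.67 against 0.18. Ociad2 (0.50 against 0.03), Fam162a (0.62 against 0.18) and Ddn (−0.04 against −0.38) were the other genes furthest above.

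Ttr and Mbp were among the 6 genes furthest below. Ttr stood at 717 CPM in Trained and 4383 in Untrained members, a log2 ratio of −2.61 against −1.74 in the remaining spots. Mbp, the myelin basic protein gene, stood at 712 and 1253 CPM, log2 −0.82 against −0.13. The oligodendrocyte list as a whole had a median of −0.70 in members and −0.06 in the remaining spots, and 5 of 8 genes were past 1.5-fold lower, against 5.72% of all genes tested.

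Npy, the neuropeptide Y gene of interneurons (chr6:49822710-49829507), stood at 189 and 251 CPM, log2 −0.41 against 0.18. Tmem158 stood at 320.2 and 212 CPM, log2 0.59 against 1.12, and Pcp4 at 615 and 575.5 CPM, log2 0.10 against 0.52. Pcp4 had opposite signs by side, at 1.40 on the left and −0.71 on the right. The interneuron list had a median of 0.02 in members and 1.01 in the remaining spots.

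Activity genes were compared between the sections' CA1 spots in the same way. The log2 ratio of Trained over Untrained was 0.08 for Egr1, against 0.20 in the remaining spots, and its direction turned under the alternatives, which ran from −0.24 with each spot thinned to 2000 UMIs to 0.18 with only members that had at least 2 member neighbours. It was −0.14 for Arc (0.19 in the remaining spots), −0.21 for Nr4a1 (−0.15) and −0.37 for Fos (0.27). The direction for Fos turned under the alternatives, which ran from −1.40 with left members only to 0.49 with spots thinned to 2000 UMIs. Over 15 immediate early genes the median was −0.06 in members and 0.01 in the remaining spots, and 2 genes were past 1.5-fold higher and 1 lower, near the shares of 10% and 5.72% over all genes tested. Bdnf (0.60) and Rheb (0.67) were higher and Junb (−0.66) lower, with values in the remaining spots of −0.06, 0.70 and −0.56. With 1 mouse per group, the spread between mice is unknown, and neither a difference nor its absence was tested.

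The list of mitochondrially encoded genes had medians of −0.69 in members and −0.61 in the remaining spots (log2), with 7 of 13 genes past 1.5-fold lower, and summed to 91390 CPM in Trained and 134214 in Untrained members. Per spot that sum had medians of 135499 and 161008 CPM, above the pooled values, in which deep spots weigh more. Synaptic vesicle genes had a median of −0.32 (−0.11 in the remaining spots), with 4 of 18 past 1.5-fold lower, against 5.72% of all genes tested. That share moves with the scaling, since the 326 lower genes became 434 without mitochondrially encoded genes in the totals. Gria2 was higher in Trained members at 0.94, close to the 0.87 of the remaining spots. Their part in the results above was not tested.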

How the data were processed

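Visium data from 2 coronal sections, 1 per group, were analysed from the gene by barcode counts deposited by the authors. The authors trimmed reads and aligned them to mm10, and Space Ranger 2.0.0 (per the submitters' processing notes) counted UMIs per gene and spot. Strand use in counting is not given in the sources used here. Deposited spatial enrichment and image scale files were not used.

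The score of a spot was the mean of ln(1 + UMIs per 10000) over the 6 genes, with ties taken in barcode order. Counts were summed over spots, scaled to 1000000 UMIs and compared as log2 ratios with 0.5 UMI added. Intervals are exact 95% Poisson or binomial intervals and cover counting error only. Against the remaining spots, genes needed 300 UMIs in each section, and between sections 100 UMIs over the members of both together. A gene counted as higher or lower past 2-fold in both sections, or past 1.5-fold between sections. Where no UMI was found, 3 counts over a section's members set the bound. Rings by distance used spots of at least 500 UMIs.

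Named genes were the 15 highest and 10 lowest against the remaining spots, the 6 furthest above and below for Trained over Untrained (members minus remaining spots, at least 200 UMIs), the 5 highest and lowest against the DG and CA3 sets, the 5 most variable, and the genes of 27 lists. Some of these genes are not reported here. Members and lists were chosen with earlier results of these data known. Gene positions came from GENCODE vM21 (GRCm38), which held 32235 of 32285 genes, and 78 entries shared a symbol. The calculations were tested on simulated data. The work ran on scipy 1.17.1, pandas 2.3.3, matplotlib 3.10.9 and numpy 2.4.6 under Python 3.11.15.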

Additional observations from a re-analysis of the deposited data

Results flagged for a closer look

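A handful of genes lay at least 1.5-fold to opposite sides of the remaining spots in the 2 sections, and the difference between the sections was not tested. Penk, the enkephalin precursor gene, had a log2 ratio of members over remaining spots of −0.78 (−1.01 to −0.56, 173 UMIs) in the Trained section and 0.80 (0.63 to 0.97, 323 UMIs) in the Untrained section. Kl, the klotho gene, which is strongly expressed in choroid plexus, had 0.91 (0.49 to 1.29, 59 UMIs) and −1.23 (−1.59 to −0.90, 73 UMIs). Zfp770 had −0.72 (−1.94 to 0.14, 9 UMIs) and 0.82 (0.26 to 1.30, 35 UMIs). Gm15446 had −0.77 (7 UMIs) and 0.71 (27 UMIs), and Timm21 had 0.59 (24 UMIs) and −0.71 (17 UMIs). The Trained intervals of Zfp770, Gm15446 and Timm21 include 0.

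Spots below 2000 UMIs were outside the selection. Among them 7 in the Trained section and 0 in the Untrained section had a score at least as high as the lowest member, and 4 of the 7 lay within 2 grid steps of a member.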

How the results depend on the processing

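No paired analysis was possible because each group held 1 section, and for the same reason no replicate could be left out. The number of genes past 2-fold higher than the remaining spots (326) was 190 with a minimum of 1000 UMIs and 255 to 409 under the other alternatives. The number past 2-fold lower (555) was 367 with 180 members per section, 308 with a pseudocount of 5 UMIs, 916 with a minimum of 100 UMIs and 221 with 1000. For Trained over Untrained, 571 higher and 326 lower became 1043 and 877 with each spot thinned to 2000 UMIs, 210 and 121 with left members only, 134 and 82 with a minimum of 400 UMIs over the members, and 1218 and 858 with 30. Without mitochondrially encoded genes in the totals they were 425 and 434. Thinning reversed Gal in the Untrained section, from −2.85 to 0.38 on 2 UMIs in the members. The cause was not tested. Of 450 values of single genes over the remaining spots, 390 moved by less than the counting error, as did 181 of 221 values for Trained over Untrained and 135 of 150 list medians, none of which reversed. The comparison sets were not run under alternatives, and rings above and below the layer were added after the data were seen.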
